A study of Homo sapiens with 18 samples.

Results

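The regions described here lost their H3K4me3 peak in NB4 cells after maltonis. Peaks of the 6 H3K4me3 lists were merged on chromosomes 1 to 22 wherever they shared at least 1 bp. A merged region was counted as lost when it held a peak in all 3 untreated (n.t.) lists and in none of the 3 maltonis lists. This rule gave 441 lost regions among 26539 merged regions (1.66%). Chromosome X, left out by the rule, held 7 more among 498 merged regions. The regions were thus chosen by their H3K4me3 calls, so the H3K4me3 values of these regions are a description without a test. A region without a peak fell under the threshold of the peak caller, which does not mean that it carried no H3K4me3.

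The libraries came from NB4, an established human cell line derived from acute promyelocytic leukemia, which is a single line and carries the PML-RARA fusion of that disease. Maltonis-treated cells had been kept for 24 h with maltonis, a synthetic maltol derivative, at 10 µM, and control cells were left untreated. H3K4me3, H3K27ac and H3K9me3 were mapped by sequencing immunoprecipitated chromatin (ChIP-seq) in 3 libraries per mark and condition, 18 in all. Each library had its own list of peaks, in coordinates of the human genome build hg19.

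Trimethylation of lysine 4 of histone H3 (H3K4me3) marks the starts of active or poised genes in broad, strong domains and occurs more weakly at active enhancers. Acetylation of lysine 27 (H3K27ac) is laid down at active promoters and active enhancers, and is commonly used to tell active from inactive regulatory DNA. Trimethylation of lysine 9 (H3K9me3) is the mark of constitutive heterochromatin and of silenced repeats and zinc-finger gene clusters. In a population of cells, fewer cells with a mark and less mark per cell cannot be told apart by ChIP-seq.

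The H3K4me3 lists held 16909 to 17333 peaks in untreated and 15418 to 15955 in maltonis libraries on these chromosomes. They covered 23.4 to 23.8 Mb and 25.2 Mb, so maltonis lists had fewer peaks over a greater length. These lists carry no read counts. The H3K27ac lists held 17659587 to 20412339 reads in peaks. They covered 215 to 226 Mb in untreated and 169 to 182 Mb in maltonis libraries. The H3K9me3 lists held 2584920 to 3344547 reads in peaks.

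Lost regions were narrower and less enriched than constant ones. Their median merged width was 1061 bp, against 1952 bp for the 12099 regions called in all 6 lists, here called constant. Other regions called in some lists only had similar or smaller widths, with medians of 1402 and 935 bp for the near misses described below, 1079.5 bp for gained regions and 559 bp for regions called in 1 untreated list. Widths of lost regions ran from 370 to 4609 bp, with 209 regions of at most 1000 bp and 69 wider than 2000 bp. Each of the 441 held exactly 1 peak per untreated list, and these peaks were narrower than the merged region, with a median called width of 674, 658 and 648 bp in untreated libraries 1, 2 and 3. In 423 regions the 3 peaks shared bases, and in 18 no base lay in all 3. The median region had 39.0% of its merged width called in all 3 untreated lists.

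The fold enrichment of a peak, as given by the caller over its local background, had a median of 2.91, 2.93 and 2.94 over the lost regions in untreated libraries 1, 2 and 3. Constant regions had medians of 4.68, 4.69 and 4.58 in the same lists, and 4.10, 4.26 and 4.14 in the maltonis lists. The mean over the 3 untreated lists ran from 1.74 to 5.73 among lost regions. It was 3 or more in 206 of them, 4 or more in 26 and 5 or more in 3. Within a region the 3 untreated lists lay close together, with a median coefficient of variation of 7.66%. Across the 441 regions the log2 fold of a pair of untreated lists had a Pearson r of 0.733, 0.696 and 0.699, given as a description since all points come from the same 3 libraries.

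**Figure D1:**
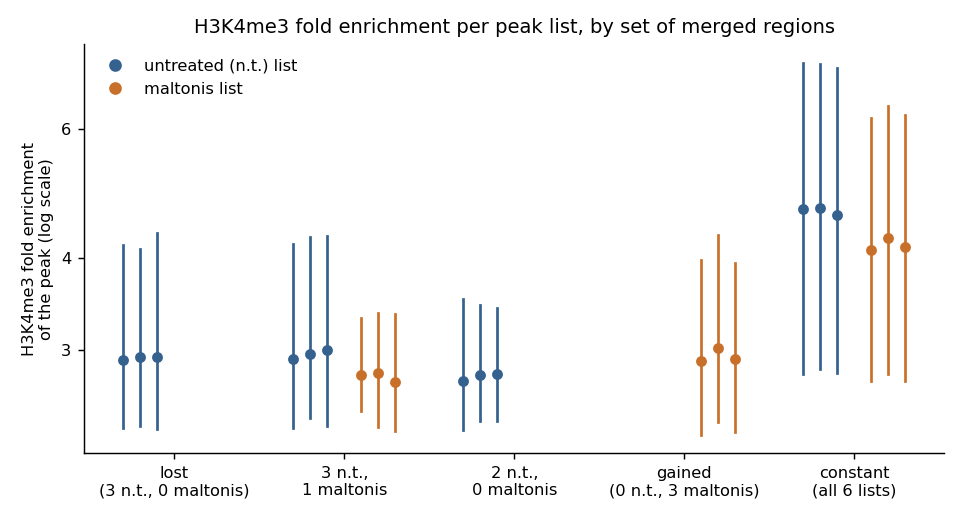
H3K4me3 fold enrichment per peak list, on a log axis, for lost regions, the 2 sets of near misses, gained regions and constant regions. Each dot is the median of one list and each line runs from its 5th to its 95th percentile; lost regions have medians of 2.91 to 2.94 in the 3 untreated lists, and constant regions 4.58 to 4.69.

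The significance of the peaks was low as well. The median −log10 q of the lost regions was 2.51, 2.29 and 2.40 in the untreated lists, at percentiles 23.6, 22.8 and 24.8 of their own lists, whose lowest values were about 1.00. A −log10 q of at least 2 in all 3 untreated lists was reached by 173 lost regions, of at least 5 by 21, and of at least 10 by 3.

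Regions just outside the rule are set beside them here. The 402 regions with a peak in 3 untreated lists and 1 maltonis list had median folds of 2.91, 2.96 and 2.99 in the untreated lists and of 2.77, 2.79 and 2.71 where a maltonis list had called them. The 823 regions with a peak in 2 untreated lists and 0 maltonis lists had 2.72, 2.77 and 2.78, with a lower median −log10 q of 1.80, 1.74 and 1.73 in the same lists. The reverse of the lost regions, 216 gained regions (0.814% of all merged regions) with a peak in 3 maltonis lists and 0 untreated lists, had 2.90, 3.01 and 2.92. Membership turned on single lists, and 687, 753 or 710 regions met the rule when untreated library 1, 2 or 3 was left out. Requiring a −log10 q of at least 2 in every list left 340 lost regions, which overlapped 173 of the 441. When the weakest peaks of every list were dropped and 75% kept, there were 503, which overlapped only 94 of the 441.

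The lost region with the highest fold was chr3:43147155-43147669 (515 bp). Its fold was 5.47, 5.76 and 5.97 in the 3 untreated lists. H3K27ac was called over it in 1 untreated library only, with 47 reads. Next came chr16:56701042-56702036 (995 bp), with folds of 5.09, 5.29 and 5.24. There, H3K27ac was called in the 3 untreated libraries, with 151, 145 and 196 reads, and in 0 maltonis libraries, so both active marks lost their peak. The third was chr10:11865221-11866183 (963 bp), with 5.49, 5.26 and 4.43, and with H3K27ac in 2 untreated and 0 maltonis libraries.

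The remaining 7 of the 10 regions with the highest fold had mean folds of 4.39 to 4.90. At chr18:21198930-21199808 H3K27ac had 76, 81 and 103 reads in the untreated libraries and no peak with maltonis. At chr1:27320145-27320734 it had 59, 133 and 101 reads and again no peak with maltonis. H3K27ac was called in 3 untreated libraries and 1 maltonis library at chr19:5292381-5293274 and chr22:51195228-51195818, and in 3 and 2 at chr1:224528425-224529041 and chr15:20777541-20778480. Among these 10 regions, chr11:6494730-6495167 was the exception that kept H3K27ac in all 6 libraries, with 96, 105 and 94 reads in untreated and 64, 79 and 43 in maltonis libraries. The drop at that region did not pass the test described below (log2 change -0.63 with an SE of 0.22, edgeR FDR 0.028).

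The 5 widest lost regions were of another kind, with mean folds of 2.34 to 2.94. The widest, chr20:62739569-62744177 (4609 bp), had folds of 2.49, 2.40 and 2.56, and its 3 peaks shared no base. The same held for chr4:2332045-2335863 (3819 bp), with 2.23, 2.37 and 2.44. By contrast, chr7:2547857-2551431 (3575 bp) had 3188 bp called in all 3 untreated lists, with folds of 2.37, 2.50 and 2.68. These 3 and chr11:76479032-76482688 (3657 bp) lay under H3K27ac in all 6 libraries, while chr2:42273502-42277078 (3577 bp) had no H3K27ac peak in any.

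Another region stood out by significance rather than fold and was singled out after its values were seen. At chr19:49127536-49128300 (765 bp) the −log10 q was at least 42.2 in each untreated list, at a fold of only 3.85, 3.70 and 4.05. It lay 3816 bp from a constant H3K4me3 region, inside a stretch of 225600 bp under H3K27ac in every library.

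Lost regions lay away from constant H3K4me3. The median distance to the next constant region was 39384 bp, and the central 80% of lost regions lay between 6717 and 181742 bp. None was closer than 1000 bp, 28 (6.35%) lay at 1000 to 5000 bp, 226 (51.2%) at 5000 to 50000 bp and 187 (42.4%) at 50000 bp or more. This spacing was shared with the other sets of regions that were not called everywhere. The median was 36387.5 and 41531 bp for the near misses, 31656.5 bp for gained regions and 48854.5 bp for the 5808 regions called in 1 untreated list only.

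**Figure D2:**
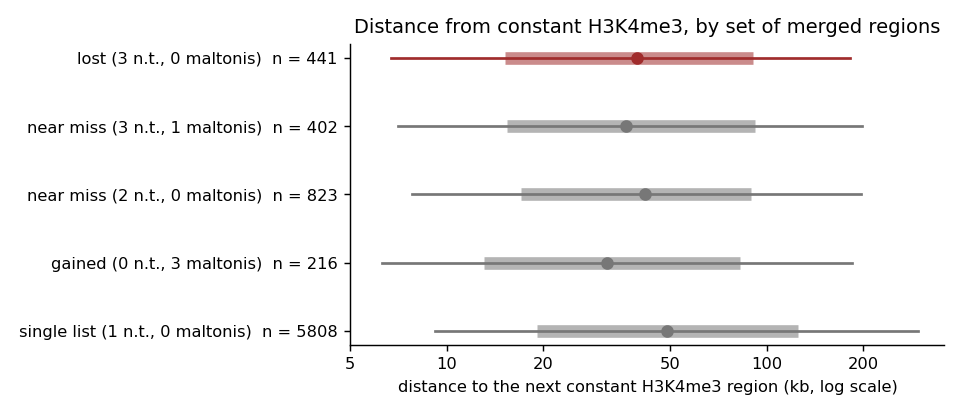
Distance to the next constant H3K4me3 region in kb, on a log axis, for each set of merged regions called in fewer than 6 lists. Dots are medians, thick bars run from the 25th to the 75th percentile and thin lines from the 10th to the 90th; the lost regions (median 39384 bp) overlap almost fully with the other sets.

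The farthest lost region was chr5:83677955-83680619 (2665 bp), 1303415 bp from the next constant region, with folds of 2.85, 2.88 and 2.80 and no H3K27ac in any library. Next was chr4:30718826-30719677 (852 bp), at 1278052 bp, with folds of 3.18, 2.78 and 3.01. It had 113, 129 and 138 H3K27ac reads in the untreated libraries and no H3K27ac peak with maltonis. At 757143 bp, chr4:149363191-149364422 (1232 bp) had folds of 4.57, 4.26 and 3.82 and H3K27ac in 1 untreated library.

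The constant regions next to lost ones kept their H3K4me3 peak in all lists, by definition. Over these 416 neighbours the median called width was 1523, 1509.5 and 1458.5 bp in the untreated lists and 1672, 1737 and 1732 bp in the maltonis lists. Their median fold was 4.49, 4.57 and 4.50 without and 4.08, 4.21 and 4.08 with maltonis. The whole set of constant regions showed the same, with called widths of 1451 to 1489 bp against 1698 to 1738 bp. Constant peaks were therefore wider and less enriched with maltonis both beside lost regions and elsewhere.

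Lost regions were spread over all 22 autosomes. Chromosome 1 held 44, chromosomes 7 and 19 held 36 each, chromosome 2 held 28 and chromosome 17 held 27. Relative to constant regions they were most frequent on chromosomes 18 (5.81 per 100 constant regions), 20 (5.60), 7 (5.43) and 4 (5.12), and least on chromosome 3 (2.25). The order depended on this base. Relative to all merged regions they were most frequent on chromosomes 18 (3.02%), 19 (2.66%) and 22 (2.36%). Chromosome 7 then had 1.66%, the same as all autosomes together (1.66%). Of the 441, 5 (1.13%) had a gained region within 100 kb, against 3.62% of all merged regions that were not gained, 3.55% of constant regions and 4.23% and 4.13% of the near misses; these differences were not tested.

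The densest stretches of 100 kb held 3 lost regions. On chromosome 4, 3 of them lay between 154074251 and 154170876 and had mean folds of 3.24, 4.17 and 3.51. H3K27ac was called over the first in 1 and over the next in 2 untreated libraries, in none of the maltonis libraries, and over the last in no library. On chromosome 19, 4 lay between 49066661 and 49179198, in overlapping stretches. Their mean folds were 2.13, 3.87, 2.80 and 2.18, and all 4 lay under both H3K27ac and H3K9me3 in all 6 libraries of each mark.

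H3K27ac, which the rule did not use, was depleted at lost regions. An H3K27ac peak overlapped 359, 351 and 336 of the 441 in the 3 untreated libraries and 213, 229 and 220 in the 3 maltonis libraries. The share fell from 79.1% ± 2.65 to 50.0% ± 1.82 (SD, n = 3 each), a difference of -29.0 percentage points with no overlap between conditions (exact two-sided permutation test, p = 0.1, the smallest that 3 against 3 libraries allow). Measured in bases, 75.5% ± 1.80 of the lost sequence lay under H3K27ac without and 51.0% ± 1.49 with maltonis (SD, n = 3 each; exact two-sided permutation test, p = 0.1), again without overlap.

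This change was larger than at other H3K4me3 regions. Constant regions went from 98.3% to 97.8%, all merged regions from 78.2% to 73.9%, and gained regions the other way, from 90.0% to 94.8%. The difference between lost and constant regions moved by -28.5 percentage points with maltonis, with no overlap between the libraries of both conditions (exact permutation test, n = 3 each, p = 0.1). Against gained regions it moved by -33.8 points, also without overlap (exact permutation test, n = 3 each, p = 0.1). Near misses lay between. Regions with 3 untreated lists and 1 maltonis list fell by 22.1 points, those with 2 untreated lists and 0 by 14.8 points, and those called in 1 untreated list only by 9.74 points. The difference between lost regions and near misses of 2 untreated lists moved by -14.2 points, without overlap (exact permutation test, n = 3 each, p = 0.1). The length under H3K27ac in the whole genome was also lower with maltonis (169 to 182 Mb against 215 to 226 Mb), and its part in these shares was not tested.

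**Figure D3:**
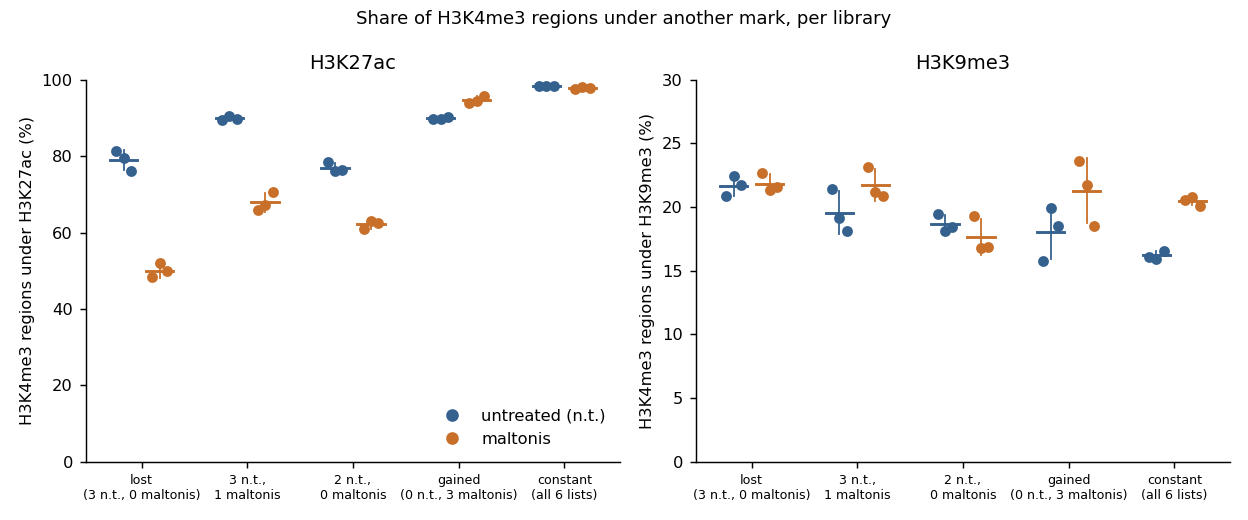
Percent of H3K4me3 regions overlapped by an H3K27ac peak (left) or an H3K9me3 peak (right) in each library, by set of regions; dots are libraries, horizontal bars means and vertical bars the SD (n = 3). For H3K27ac the lost regions drop from 79.1% to 50.0% and constant regions stay near 98%, while for H3K9me3 the lost regions stay at 21.7% and 21.8%.

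Region by region, H3K27ac followed H3K4me3 at some lost regions and stayed at others. It was called in all 3 untreated and no maltonis library at 81 of the 441 (18.4%), where 2.71% of all merged H3K4me3 regions had this pattern. It was called in more untreated than maltonis libraries at 171 (38.8%; 8.99% of all merged regions) and the reverse held at only 3 (0.680%; 2.62%). The near misses of 2 untreated and 0 maltonis lists had these patterns at 7.78%, 24.1% and 2.55%, in the same order. Fewer H3K27ac calls with maltonis were thus not confined to lost regions. At 198 lost regions (44.9%; 69.7% of all merged regions) H3K27ac was called in all 6 libraries, so these lost the H3K4me3 peak under a persisting H3K27ac peak. A further 68 (15.4%; 17.8%) had no H3K27ac peak in any library.

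These groups differed in their surroundings. The 198 regions with H3K27ac in all libraries lay in wide H3K27ac regions (median 10800 bp) and at a median of 24545.5 bp from constant H3K4me3, and 67 of them shared their H3K27ac region with a constant H3K4me3 region. The 81 regions where H3K27ac was called without maltonis only lay in narrow H3K27ac regions (median 2800 bp), 36921 bp from constant H3K4me3, and 3 of them shared the H3K27ac region with a constant one. The 68 regions without H3K27ac lay farthest, at a median of 84947 bp. The median of the mean H3K4me3 fold was 2.73 where H3K27ac was called in all libraries, 3.25 where it was called in the 3 untreated ones only and 3.10 where it was never called.

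The lost regions were then grouped by their mean H3K4me3 fold, a value the rule itself rests on, so that the groups are given as a description. Among the 147 lost regions with the lowest mean fold (1.74 to 2.79), H3K27ac was called in all 6 libraries at 120 and in 3 untreated and 0 maltonis libraries at 7. Among the 147 in the middle (2.79 to 3.16) these numbers were 61 and 26, and among the 147 with the highest fold (3.16 to 5.73) they were 17 and 48. The average share under H3K27ac went from 93.0% to 84.6% with maltonis in the lowest group, from 74.4% to 46.3% in the middle and from 69.8% to 19.3% in the highest. In the same fold ranges the near misses of 3 untreated lists and 1 maltonis list had H3K27ac in all 6 libraries at 113 of 130, 84 of 122 and 56 of 148 regions, so that an order of this kind was not confined to lost regions. Of the same near misses, 5, 14 and 45 had H3K27ac in 3 untreated and 0 maltonis libraries. Constant regions had H3K27ac in all 6 libraries at 97.9%, 94.5% and 96.3% in these ranges. By distance, 21 of 28 lost regions within 5000 bp of constant H3K4me3 had H3K27ac in all libraries, 119 of 226 at 5000 to 50000 bp and 58 of 187 farther out. Other sets of regions were not counted by distance, so this order cannot be called particular to lost regions. Fold and distance were not independent of each other or of the width of the H3K27ac region, and their separate parts were not tested.

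**Figure D4:**
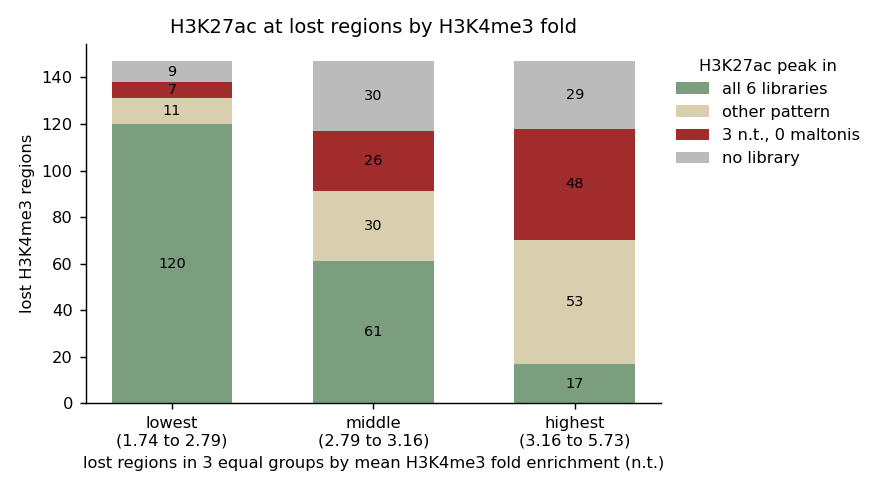
Lost H3K4me3 regions in 3 groups of 147 by their mean fold enrichment in the untreated lists, split by where H3K27ac was called over them; bar height is the number of regions. From the lowest to the highest group there are 120, 61 and 17 regions with H3K27ac in all 6 libraries and 7, 26 and 48 with H3K27ac in the 3 untreated ones only, as a description, since the rule that chose the regions also rests on their H3K4me3 calls.

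Among the regions with H3K27ac in the untreated libraries only, the one with the largest isolated H3K27ac signal was chr11:45478271-45479319 (1049 bp; H3K4me3 folds 3.99, 3.18 and 3.68). It lay in an H3K27ac region of 23400 bp, with 1690, 1773 and 1625 reads in the untreated libraries and no call at all in the 3 maltonis libraries. Its next constant H3K4me3 region was 275126 bp away. At the other 4 regions of this kind with the most reads, H3K27ac remained elsewhere in the same merged region. At chr7:143057878-143059843 (1966 bp; folds 4.17, 3.82 and 3.77) the merged H3K27ac region spanned 61000 bp and kept 6484, 7702 and 7076 reads with maltonis against 8225, 8540 and 8312 without, yet it no longer reached the lost H3K4me3 region. At chr2:27341235-27342059 (825 bp; folds 2.46, 2.69 and 2.88) the reads went from 334, 314 and 342 to 105, 111 and 96, and the length called from 6600 to 7600 bp down to 2400 to 3600 bp. At chr2:172959478-172960246 (769 bp) they went from 851, 876 and 767 to 411, 461 and 455. At chr6:43970456-43971334 (879 bp) they went from 530, 510 and 530 to 477, 576 and 421, so that the conditions overlapped.

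The 3 lost regions with H3K27ac in more maltonis than untreated libraries had few reads. H3K27ac was called over chr15:79012119-79012925 in maltonis library 2 only, with 62 reads. Over chr17:76732316-76733433 it was called in 1 untreated library with 100 reads and in 2 maltonis libraries with 76 and 107. Over chr18:8603904-8604496 it was called in 2 untreated libraries with 53 and 54 reads and in 3 maltonis libraries with 66, 61 and 48.

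H3K27ac reads were compared in the 19504 merged H3K27ac regions called in all 6 libraries. A region passed when its FDR was 0.01 or less and its log2 fold change 0.58 or more in either direction (edgeR quasi-likelihood test, Benjamini-Hochberg over all regions). Lost H3K4me3 regions touched 206 of these H3K27ac regions, and the others could not be tested since H3K27ac was missing in at least 1 list. Of the 206, 103 (50.0%) had fewer reads with maltonis, against 19.5% of all regions tested, and 2 had more, against 8.05%. The median log2 fold change was -0.62 over the 206 and -0.02 over all tested regions. Where the H3K27ac region held no constant H3K4me3, 87 of 138 had fewer reads (63.0%, against 31.5% of all such regions), and where it did, 16 of 68 had fewer (23.5%, against 9.20%). The rises were 1 of each kind, against 6.79% of all regions without and 9.14% of all regions with constant H3K4me3.

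The H3K27ac regions with fewer reads were also called over a shorter length. Over the 103, the median called length went from 7733 bp without to 3667 bp with maltonis, and 103 of 103 were shorter. Of the 101 regions at lost H3K4me3 that passed in neither direction, 88 were shorter too, so shortening was not confined to the 103. The share of all tested H3K27ac regions that were shorter was not counted, so these counts are no trait of lost regions. Reads were counted over the called length only, so fewer reads and a shorter call are not independent. When the called length entered the fit as an offset, 32 of 206 had fewer reads per length (15.5%, against 4.61% of all regions tested), 1 had more (0.485%, against 2.18%), which was not among the 2 above but the region at chr6:43970456-43971334, and the median log2 fold change was -0.22. Among the 23 regions at lost H3K4me3 whose called length differed by at most 1.2 times between libraries, 0 had fewer reads and 0 had more (edgeR, against 1.40% and 5.83% of all such regions). At an unadjusted p under 0.05 (edgeR) there were 20 of these 23 in either direction. The share of all regions of similar length at this p was not counted, so the 20 cannot be weighed. The median log2 fold change of the 23 was 0.10, against 0.18 over all regions of similar length. Of the 103 regions with fewer reads, 30 also passed with the offset.

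**Figure D5:**
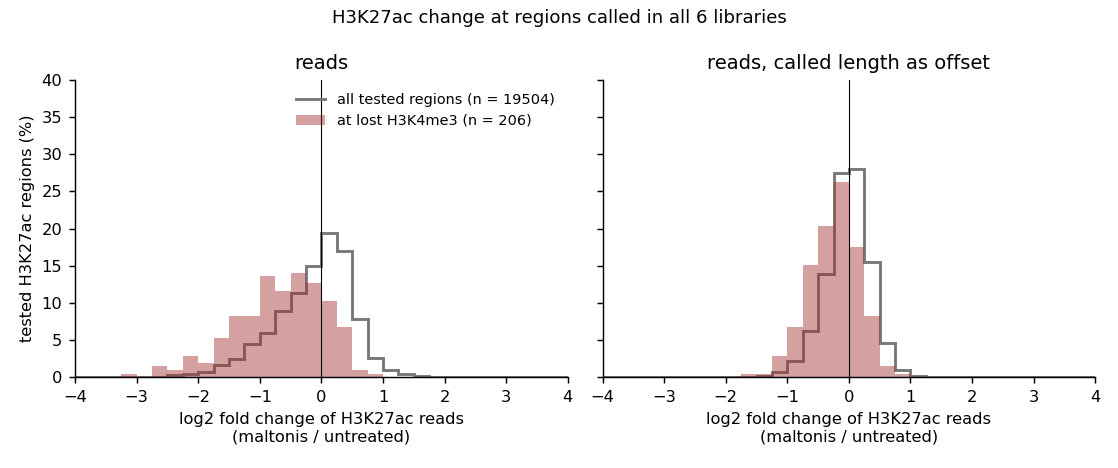
Distribution of the log2 fold change of H3K27ac reads (maltonis over untreated) for all 19504 tested H3K27ac regions (line) and the 206 at lost H3K4me3 (filled), in bins of 0.25, as percent of each set; left, reads, and right, reads with the called length as an offset. The regions at lost H3K4me3 lie to the left of all tested regions in both panels, with a median of -0.62 from reads and -0.22 with the offset.

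The lowest value belonged to chr7:150634908-150635830 (923 bp; H3K4me3 folds 2.69, 2.78 and 2.41). Its H3K27ac region, 22800 bp wide, also held constant H3K4me3. H3K27ac was called over the lost region itself in 3 untreated and 2 maltonis libraries. Summed over the whole H3K27ac region, reads were 2272, 2298 and 2319 in the untreated and 255, 293 and 170 in the maltonis libraries. The log2 fold change was -3.22 (SE 0.11, edgeR FDR 3.04e-08). With the called length as an offset it was -1.66. At chr15:86293173-86295251 (2079 bp) the reads fell from 649, 638 and 627 to 93, 118 and 84 (log2 fold change -2.66, SE 0.11, edgeR FDR 9.32e-08). At chr22:49113703-49115245 (1543 bp), 649075 bp from constant H3K4me3, they fell from 1532, 1312 and 1419 to 159, 307 and 201 (log2 fold change -2.64, SE 0.15, edgeR FDR 4.36e-07).

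The next were chr7:1456657-1457973 (1317 bp), with a log2 fold change of -2.55, and chr10:134328437-134331518 (3082 bp), with -2.36. At the latter, reads fell from 1242, 1217 and 1266 to 224, 228 and 253. All 5 also passed with the called length as an offset, with log2 fold changes of -1.66 to -0.86. The widest lost region, on chromosome 20 (above), behaved likewise, with 734, 702 and 725 reads going to 194, 250 and 184 (log2 fold change -1.74, SE 0.10, edgeR FDR 3.89e-07).

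A rise in H3K27ac reads at a lost H3K4me3 region passed at 2 places. Around chr6:27520541-27521795 (1255 bp; H3K4me3 folds 3.25, 2.71 and 2.49), 355, 401 and 354 reads went to 546, 683 and 632 (log2 fold change 0.79, SE 0.08, edgeR FDR 1.54e-05). That H3K27ac region also held constant H3K4me3, and its log2 fold change was 0.07 once the called length entered as an offset. Around chr5:142814497-142815180 (684 bp), 98, 118 and 103 reads went to 157, 176 and 157 (log2 fold change 0.66, SE 0.15, edgeR FDR 0.0031), and the offset left it at 0.56, which did not pass (edgeR FDR 0.029). The number that passed was 1 without untreated library 3 and 1 without maltonis library 1. At chr16:90148606-90149005 the reads were 644, 619 and 602 without and 828, 940 and 916 with maltonis, a log2 fold change of 0.57 that lay under the limit of 0.58.

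The share of lost regions under H3K9me3 gave no stable difference. H3K9me3 overlapped 20.9%, 22.4% and 21.8% of them in the untreated and 22.7%, 21.3% and 21.5% in the maltonis libraries (21.7% ± 0.796 and 21.8% ± 0.729, SD, n = 3 each; exact two-sided permutation test, p = 0.9). The difference of 0.151 percentage points was 2.39 with the strongest 75% of H3K4me3 peaks, 3.43 with a −log10 q of at least 2 and 1.28 with the strongest 75% of H3K9me3 peaks, each without overlap (exact permutation test, n = 3 each, p = 0.1). It was -0.301 with H3K4me3 peaks within 1000 bp merged and -0.265 without untreated library 1 or without maltonis library 1. The bases under H3K9me3 went from 21.3% to 23.1%, without overlap between conditions (exact permutation test, n = 3 each, p = 0.1). At constant regions the share of regions rose by 4.28 percentage points, from 16.2% to 20.5%, without overlap (exact permutation test, n = 3 each, p = 0.1). The difference between lost and constant regions therefore narrowed from 5.49 to 1.36 percentage points, again without overlap (exact permutation test, n = 3 each, p = 0.1).

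Most lost regions, 275 of 441, had no H3K9me3 peak in any library (62.4%; 65.2% of all merged regions). H3K9me3 was called in all 6 libraries at 46 (10.4%; 7.93% of all merged regions). Of these, 13 were among the 36 lost regions of chromosome 19 and 11 among the 36 of chromosome 7, where 20.8% and 13.4% of all merged regions had H3K9me3 in all 6 libraries. The number of libraries with a call was lower with maltonis at 55 (12.5%; 9.57%) and higher at 53 (12.0%; 13.3%). H3K9me3 was called in 3 untreated and 0 maltonis libraries at 5 (1.13%; 0.399%), and in 0 and 3 at 6. The share of all merged regions with the latter pattern was not counted, so loss and gain cannot be weighed from these counts. The shares with fewer and with more calls lay near those of all merged regions.

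H3K9me3 reads were tested at the 14165 regions called in all 6 libraries, 68 of which touched a lost H3K4me3 region. By edgeR, 0 of the 68 had fewer reads (0.0141% of all tested regions) and 3 had more (4.41%, against 0.254%). All 3 held constant H3K4me3. Among all tested H3K9me3 regions, 0.840% of those with constant H3K4me3 had more reads, and 0.194% of those without. At an unadjusted p under 0.05 (edgeR) there were 33 of the 68 in either direction. The share of all tested regions at this p was not counted, so the 33 cannot be weighed. DESeq2 called 4 with more (5.88%, against 0.967% of all tested regions) and 0 with fewer (against 0.297%). The count with more reads was 1 without untreated library 2, where 12 of all tested regions had more, against 36 with every library. It was also 1 without untreated library 3, maltonis library 1 or maltonis library 2. In each of these 3 fits only 1 of all tested regions had more reads, so calls became rare everywhere. When the called length entered as an offset the count was 1 (1.47%, against 0.120% of all tested regions, with 0 lower against 0.0424%). That 1 was not among the 3, none of which passed with the offset, but the region at chr2:109829716-109830859 (log2 fold change 0.90, edgeR FDR 0.0076).

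The 3 regions with more H3K9me3 reads were named after their values were seen. Their reads were summed over whole H3K9me3 regions, of 38200, 25600 and 94600 bp in the order below, not over the lost regions. At chr20:62199010-62200260 (1251 bp; H3K4me3 folds 2.84, 3.19 and 2.94) H3K9me3 reads rose from 210, 180 and 177 to 500, 506 and 458 (log2 fold change 1.48, edgeR FDR 0.00044), while H3K27ac was called in 3 untreated and 0 maltonis libraries. At chr2:172959478-172960246, named above for its H3K27ac, H3K9me3 reads rose from 195, 199 and 233 to 366, 378 and 372 (log2 fold change 0.96, edgeR FDR 0.0046). At chr19:47207244-47207989 (746 bp) they rose from 1080, 952 and 1108 to 1626, 1493 and 1333 (log2 fold change 0.62, edgeR FDR 0.0019), inside an H3K27ac region called in all 6 libraries. Over that lost region itself H3K9me3 was called in 2 untreated and 3 maltonis libraries. With the called length as an offset the log2 fold changes were 0.09, 0.28 and 0.24 in the same order. The mean called length of these H3K9me3 regions went from 11333 to 29400 bp, from 13733 to 21667 bp and from 61067 to 78467 bp.

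The lost regions with the most H3K9me3 reads lay in long H3K9me3 domains that also carried H3K27ac. Reads were summed over the whole H3K9me3 region, so this rank favours long regions and their length is no result. The first, chr8:128738043-128739868 (1826 bp; H3K4me3 folds 2.07, 2.24 and 2.01), lay in an H3K9me3 region of 376400 bp, with 7156, 6942 and 6937 reads in the untreated and 8777, 8688 and 7863 in the maltonis libraries. The others, chr19:49066661-49068484 (1824 bp) and chr19:49148288-49149957 (1670 bp), belonged to the chromosome 19 cluster above and shared an H3K9me3 region of 317600 bp with 6441, 6397 and 6295 against 7903, 7458 and 6827 reads. The rise in both H3K9me3 regions had an edgeR FDR under the limit, with log2 fold changes of 0.39 and 0.33 that were too small to pass.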

How the data were processed

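One deposited peak list per library was used, for 3 replicates per mark and condition, grouped by sample titles; the study describes biological triplicates. Per the labels, reads were processed with BWA, SAMtools, MACS2 and SICER on hg19. The authors called H3K4me3 peaks with MACS2 and H3K27ac and H3K9me3 regions with epic2. Caller settings and controls are not given in the sources used here. Deposited H3K4me3 peaks carry a fold enrichment (a ratio to the local background) and a −log10 q, both relative to their own list. Deposited H3K27ac and H3K9me3 regions carry a read count without normalization, which refers to the length called in that library. The deposited −log10 p and score columns were not used.

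Lists were merged at 1 bp overlap (Python 3.11.15, pandas 2.3.3). Shares per library were compared by exact permutation over 20 assignments (numpy 2.4.6). Reads were summed per merged region called in all 6 lists and tested with edgeR 4.0.16 (TMM, quasi-likelihood), with DESeq2 1.42.0 as an alternative. Scripts were tested on simulated data. The members and lists were chosen with earlier results of these data known. Regions were named by fixed ranks: the 10 highest folds, the 5 widest, the 5 lowest and 3 highest H3K27ac changes, the 5 with most reads of H3K27ac called in untreated libraries only, those with H3K27ac in more maltonis libraries, the 3 with most H3K9me3 reads, the 3 farthest and the 3 densest stretches of 100 kb. No annotation or sequence of hg19 was at hand, so genes, marker genes of NB4 and sequence features were not analysed here. Total reads per library were not used, and peaks without a count carry no interval.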

Additional observations from a re-analysis of the deposited data

How the results depend on the processing

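The median distance to constant H3K4me3 lay between 36406.5 and 43713 bp in the alternatives run on it, and the H3K27ac share and the bases under H3K27ac fell in all of theirs. The H3K27ac difference lay between -23.3 and -44.1 percentage points, without overlap each time. The number of lost regions ran from 570 to 753 when a list was left out. The difference in H3K9me3 share, 0.151 points, was 2.39 with the strongest 75% of H3K4me3 peaks, 3.43 with a −log10 q of at least 2 and 1.28 with the strongest 75% of H3K9me3 peaks (exact permutation test, p = 0.1 each). It was -0.301 with peaks within 1000 bp merged and -0.265 to 0.529 with a library left out. The cause was not tested. H3K27ac regions with fewer reads numbered 98 to 101 of 206 with a library left out, 103 with RLE size factors, 105 with DESeq2, 32 with an offset for called length and 0 in regions of similar called length. Those with more reads numbered 1 to 3 with a library left out, 1 with the offset (a region not called without it), 1 in regions without constant H3K4me3 and 0 at similar length, where 23 regions remained. H3K9me3 regions with more reads numbered 1 to 3 with a library left out and 1 with the offset, again a region not called without it. Over all tested H3K9me3 regions the numbers were 1 to 12 and 17, against 36 in the main fit. Regions without constant H3K4me3, similar called length, chromosome X and the subset of members with a −log10 q of at least 2 were added after seeing the data. Same-numbered libraries showed no shared deviation, with correlations of 0.0040, 0.031 and 0.0023 for H3K27ac and 0.00056, -0.019 and 0.0055 for H3K9me3. The labels do not say whether they were handled as pairs. With a replicate block 104 H3K27ac regions had fewer reads, 2 of the 3 H3K9me3 regions with more reads passed (edgeR FDR 0.011 for the one on chromosome 2), and the block's sign-flip test of the H3K27ac share gave p = 0.25, the smallest it allows (exact test, n = 3 pairs). The H3K4me3 lists hold no reads, so how near the maltonis libraries came to a call is not known.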
